A study of Caenorhabditis elegans with 18 samples.

Results

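The 10 genes described here encode collagens of the cuticle, the extracellular coat of *Caenorhabditis elegans*, and were taken by name from the 24998 genes of the expression table. They are the 6 furrow collagens *dpy-2*, *dpy-3*, *dpy-7*, *dpy-8*, *dpy-9* and *dpy-10*, the body-shape collagens *rol-6* and *sqt-3*, and the strut collagens *bli-1* and *bli-2*. The rule is a list of names, with no threshold on a measured value. Polyadenylated RNA of whole hermaphrodites was sequenced on day 1 of adulthood, after growth at 20 °C on NGM plates with *E. coli* OP50, in 3 libraries for each of 6 genotypes. The genotypes were 2 double mutants, *lin-29; fbxl-5* and *rict-1; fbxl-5*, the 3 single mutants *lin-29*, *rict-1* and *fbxl-5*, and the wild-type strain N2. The alleles were n333 for *lin-29*, mg360 for *rict-1* and rhd43 for *fbxl-5*, in single and double mutants alike. Each genotype was 1 strain, so an effect of the mutation and any other difference of that strain cannot be told apart. *lin-29* encodes a zinc-finger transcription factor that carries the epidermis through the larval-to-adult switch, *rict-1* encodes the Rictor subunit of the kinase complex mTORC2, and *fbxl-5* encodes an F-box protein with leucine-rich repeats whose rhd43 allele is a nonsense mutation. The comparisons ask how loss of *fbxl-5* acts alone, in animals with impaired developmental timing and in animals with impaired mTORC2.

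The cuticle is made by the epidermis, also called the hypodermis, and is replaced at each larval molt. Its collagens are encoded by a large gene family whose members are switched on in waves within each molting cycle, *dpy-7* early and *dpy-13* later. The 6 furrow collagens build the circumferential furrows between the annuli of the cuticle, and animals that lack any of them are short and fat (dumpy). *rol-6* is the collagen whose dominant alleles make animals roll about their long axis, and *sqt-3* is a collagen needed for body shape from the embryo on. *bli-1* and *bli-2* form the struts that join the inner and outer layers of the adult cuticle, and their loss leaves fluid-filled blisters. In *lin-29* mutants the epidermis is known to fail to leave the larval program and to go on molting.

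Between 13434120 and 29733059 reads fell on genes in the 18 libraries, of which the 10 collagens took 324 to 23022. Values are normalized counts, the reads on a gene scaled to a common library size with the DESeq2 size factors, and replicate values are given in the order 1, 2 and 3. Ribosomal RNA made up 30% of the reads in *fbxl-5* replicate 3 and at most 4.49% in any other library. The RNA of the mutated genes was present in every genotype. *lin-29* had normalized counts of 206, 171 and 135 in *lin-29* animals, against 104, 96.03 and 106 in wild-type. *fbxl-5* had 139, 138 and 141 in *fbxl-5* animals, against 86.5, 110.1 and 88.1 in wild-type, and *rict-1* had 3025, 2119.7 and 2786 in *rict-1* animals, against 3249, 2998 and 2767 in wild-type. None of these alleles is described as removing the transcript, so these levels do not check the labels. RNA of *lin-26*, a transcription factor of epidermal fate, was at 2476, 2310.0 and 2042 in *lin-29* and 2465, 2382 and 2169.7 in wild-type animals. It is the most abundant of 6 listed regulators of epidermal cells, 3 of which were higher in *lin-29* at 1% FDR.

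All 10 genes are protein-coding in the Ensembl annotation of the WBcel235 genome. *dpy-2* (WBGene00001064; chromosome II, 6714292 to 6715971, plus strand) and *dpy-10* (WBGene00001072; chromosome II, 6710149 to 6712227, minus strand) are divergent neighbours with 2064 bases between them, and no other pair lies side by side. *dpy-3* (WBGene00001065; 2144605 to 2145647), *dpy-7* (WBGene00001069; 7536467 to 7537792) and *dpy-8* (WBGene00001070; 5148804 to 5150476) are on the minus strand of chromosome X. *dpy-9* (WBGene00001071; 257403 to 259204, minus strand) is on chromosome IV and *sqt-3* (WBGene00005018; 12352745 to 12354320, plus strand) on chromosome V. *rol-6* (WBGene00004397; 8733050 to 8734239, plus strand), *bli-1* (WBGene00000251; 10708960 to 10712156, plus strand) and *bli-2* (WBGene00000252; 5651394 to 5652434, minus strand) are on chromosome II. *bli-1* lies wholly inside *dph-2* and *bli-2* wholly inside *zyg-1*, each on the opposite strand, with 7 and 0 bases shared between exons. The libraries did not keep strand, so unspliced RNA of the host gene cannot be told apart from the collagen's own. The mean normalized count ranged from 631 to 760.3 over the 6 genotypes for *dph-2* and from 1484 to 1983 for *zyg-1*. *dpy-10* shares 780 of its 1593 exonic bases with the same-strand gene *T14B4.19*, which was not analysed here. Collagens also share repeated sequence, and how short reads matching several of them were counted is not given in the sources used here.

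In adult wild-type animals 8 of the 10 genes were at low levels. On the scale of normalized counts per kilobase of exon, *sqt-3* led with a level of 162 ± 82.6 (SD, n = 3) and *dpy-10* followed with 87.8 ± 10.1 (SD, n = 3). The other 8 levels ran from 2.95 for *bli-1* to 15.2 for *dpy-9*. The order differed in *lin-29* animals, where *sqt-3* reached 4917 ± 2251 (SD, n = 3) per kilobase and *rol-6*, ninth in wild-type at 4.50 ± 2.51 (SD, n = 3), came second at 2252 ± 1076 (SD, n = 3). The 6 furrow collagens lay together below them in *lin-29*, with levels of 473 for *dpy-9* to 727 for *dpy-8*. The SDs of neighbouring furrow collagens overlapped in *lin-29* animals. *bli-1* was lowest in both genotypes, at 6.15 ± 0.9 in *lin-29* and 2.95 ± 0.205 in wild-type (SD, n = 3 each).

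**Figure D1:**
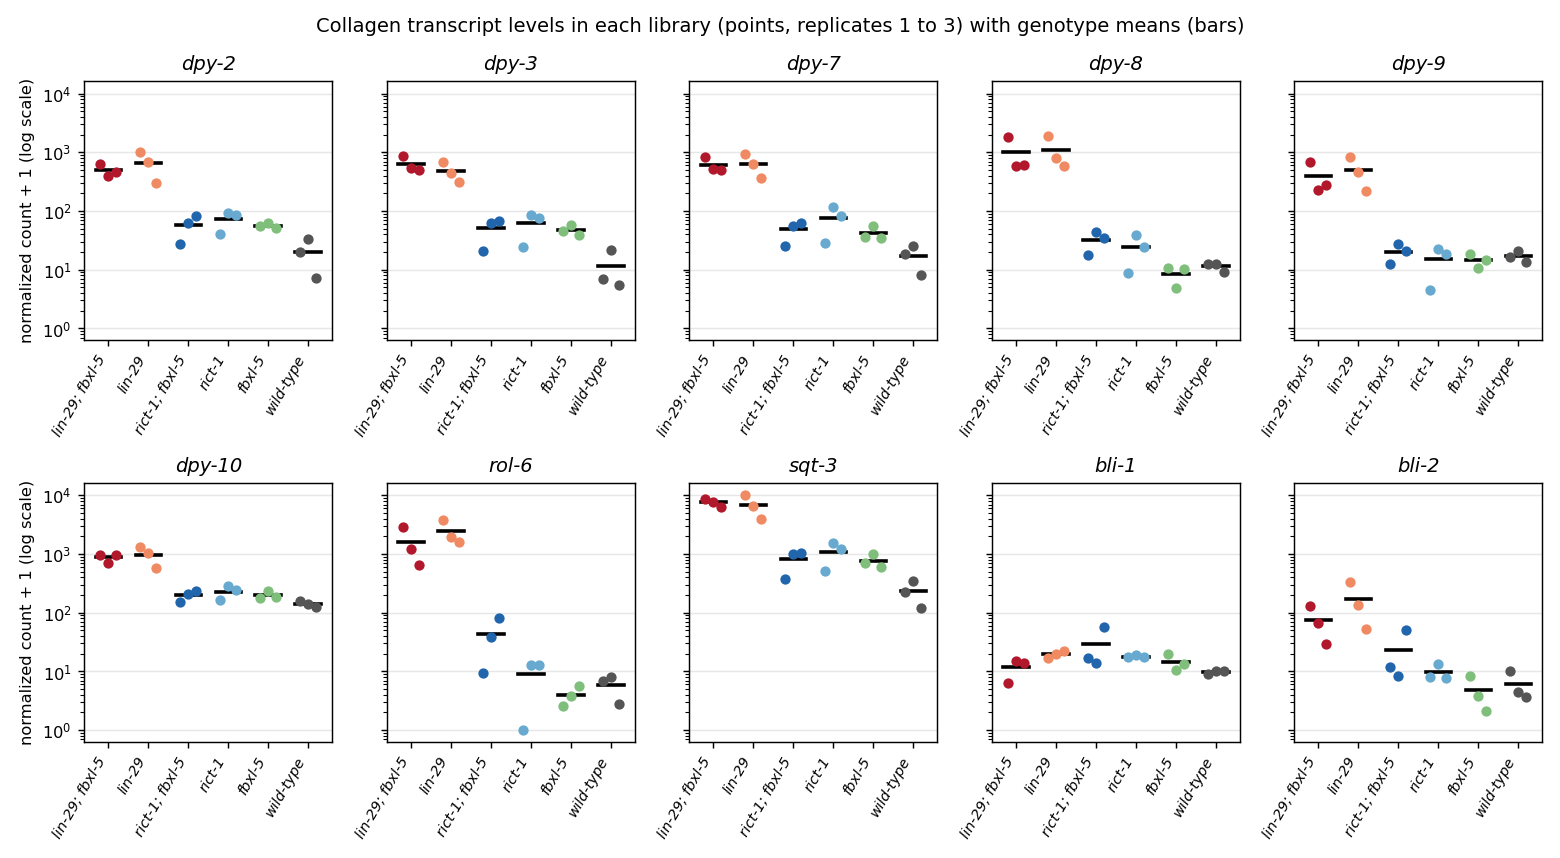
Normalized count plus 1 on a log axis for each of the 10 collagens (panels) in each library (points), by genotype, with the genotype mean as a bar (n = 3). For all but *bli-1* and *bli-2* the 6 libraries with the *lin-29* mutation sit above the other 12, while *bli-1* stays between 5.41 and 55.7 throughout.

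Furrow collagen transcripts were many times more abundant in *lin-29* adults than in wild-type. *dpy-7*, the furrow collagen whose promoter is widely used as an epidermal marker, had normalized counts of 938, 629 and 359.6 in *lin-29*, against 17.5, 24.6 and 7.27 in wild-type. *dpy-2* had 999.8, 686 and 305 in *lin-29*, against 18.7, 32.8 and 6.36 in wild-type, and its neighbour *dpy-10* had 1328, 1031 and 581 in *lin-29*, against 156, 141 and 124 in wild-type. Every *lin-29* library was above every wild-type library for these genes, and the same held for the 3 that follow. *dpy-3* had 688, 441 and 309.9 in *lin-29*, against 5.85, 21.1 and 4.54 in wild-type. *dpy-8* had 1938, 788 and 575 in *lin-29*, against 11.7, 11.7 and 8.18 in wild-type. *dpy-9* had 819, 454 and 217 in *lin-29*, against 15.2, 19.9 and 12.7 in wild-type. *lin-29* replicate 1 was the highest and replicate 3 the lowest for each of the 6. In the limma fit on log2(normalized count + 1), with Benjamini-Hochberg adjustment over the 13472 genes tested, all 6 rose at 1% FDR. The change was largest for *dpy-8*, at 6.39 ± 0.58 (SE), adjusted p = 3.20e-07, and smallest for *dpy-10*, at 2.73 ± 0.26 (SE), adjusted p = 4.58e-07. The means of *dpy-8* were 1100.2 ± 733 in *lin-29* and 10.5 ± 2.04 in wild-type (SD, n = 3 each), a ratio of 105, and those of *dpy-10* were 979.9 ± 376 and 139.9 ± 16, a ratio of 7.01. *dpy-10* had the highest wild-type level of the 6, while its *lin-29* level per kilobase was among those of the other 5. The changes of *dpy-2*, *dpy-3*, *dpy-7* and *dpy-9* lay between 4.70 and 5.60 on the log2 scale. In RNA of whole animals, more cells of a type and more RNA per cell cannot be told apart.

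The body-shape collagens moved further still in one case. *rol-6* had normalized counts of 3790.0, 1957 and 1609.9 in *lin-29*, against 5.85, 7.03 and 1.82 in wild-type, where its 3 libraries held few reads. Its log2 fold change was 8.73 ± 0.94 (SE), adjusted p = 2.44e-06, with a 95% interval of 6.73 to 10.73, the largest among the 10 collagens. *sqt-3*, the most abundant of the 10 per kilobase in all 6 genotypes, had 10366, 6613 and 3996 in *lin-29*, against 222, 353 and 118 in wild-type, a log2 fold change of 4.94 ± 0.51 (SE), adjusted p = 2.76e-06. The lowest *lin-29* library for *sqt-3* was still far above the highest wild-type library, at 3996 against 353.

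The strut collagens did not move as a pair. *bli-2* had normalized counts of 332, 135 and 51.2 in *lin-29*, against 9.36, 3.51 and 2.73 in wild-type, and rose by 4.58 ± 0.76 (SE), adjusted p = 1.11e-04 on the log2 scale. *bli-1* had 15.7, 18.8 and 21.1 in *lin-29*, against 8.19, 9.37 and 9.09 in wild-type, with no overlap between the libraries but a small difference. Its log2 fold change was 0.97 ± 0.46 (SE), adjusted p = 0.0804, which did not pass the threshold, and its 95% interval was 0.01 to 1.94. In all, 9 of the 10 collagens were higher in *lin-29* at 1% FDR, against 22.6% of all genes tested, and 18.4% of all genes were lower, none of the 10 among them. For all 10, every *lin-29* library was above every wild-type library, which held for 30.1% of all genes tested. The median log2 fold change of the 10 was 5.04, against -0.01 over all genes tested. The same 9 were called under every alternative run, including edgeR and DESeq2 on the recovered reads and each library left out.

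**Figure D2:**
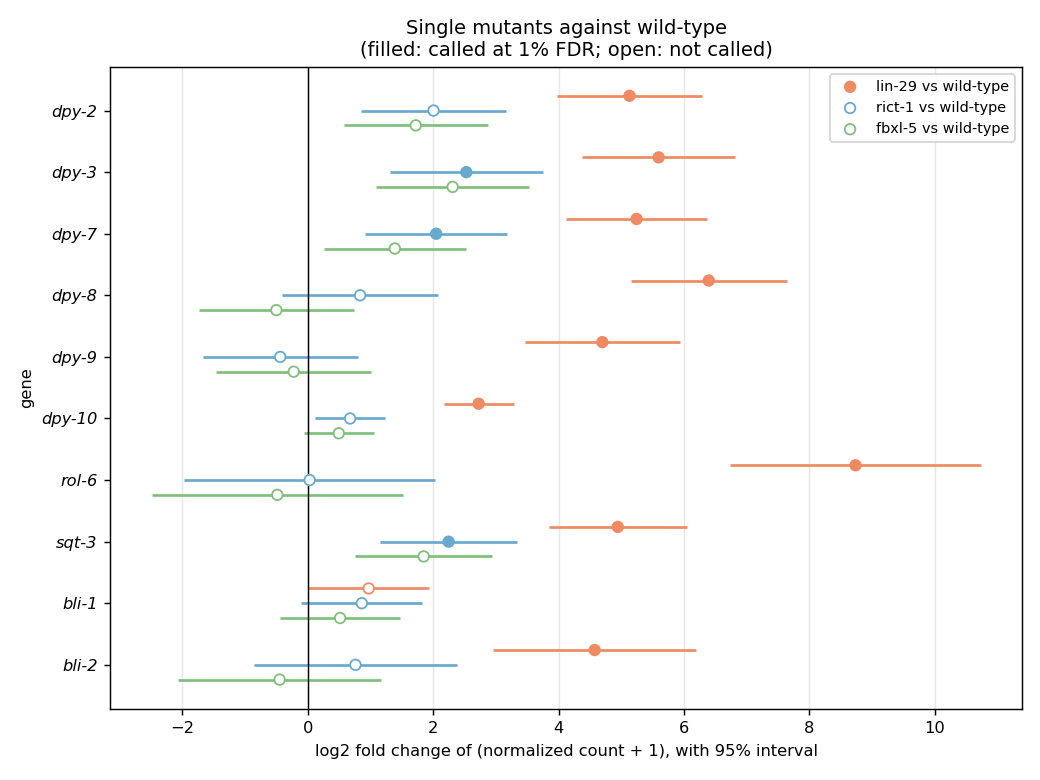
Log2 fold change of each collagen (rows) against wild-type in *lin-29*, *rict-1* and *fbxl-5* animals, with its 95% interval as a line; filled points passed 1% FDR. In *lin-29* all but *bli-1* are filled, in *rict-1* *dpy-3*, *dpy-7* and *sqt-3* are, and in *fbxl-5* none is.

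Loss of *fbxl-5* in *lin-29* animals left the collagens high. *dpy-7* had normalized counts of 832, 519 and 495 in *lin-29; fbxl-5*, against 938, 629 and 359.6 in *lin-29*. *rol-6* had 2934, 1235 and 659.8 in *lin-29; fbxl-5*, against 3790.0, 1957 and 1609.9 in *lin-29*, and *sqt-3* had 8724, 7607 and 6443 in *lin-29; fbxl-5*, against 10366, 6613 and 3996 in *lin-29*. The libraries of both genotypes overlapped for 9 of the 10 genes, while 19% of all genes did not overlap in either direction. The exception was *bli-1*, with 5.41, 14.3 and 12.9 in *lin-29; fbxl-5*, against 15.7, 18.8 and 21.1 in *lin-29*. None of the 10 was called by limma at 1% FDR, against 5.82% of all genes in either direction, and 0 had an unadjusted p under 0.05, against 24.9% of all genes. edgeR and DESeq2 called 0 as well. The intervals show what size of difference these libraries leave possible. For *dpy-10*, the most tightly measured, the log2 difference was -0.10 with a 95% interval of -0.65 to 0.46. For *sqt-3* it was 0.21 (-0.88 to 1.31) and for *dpy-3* 0.44 (-0.77 to 1.66). For *rol-6* it was -0.77 (-2.77 to 1.23) and for *bli-2* -1.06 (-2.68 to 0.56), so a several-fold lower level in the double mutant is within the interval for both.

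Set against wild-type, with which *lin-29* animals were also compared, 9 of the 10 were higher in *lin-29; fbxl-5* at 1% FDR, against 19.5% of all genes higher and 19.5% lower. The same 9 genes had every *lin-29; fbxl-5* library above every wild-type library, against 27.7% of all genes. *dpy-8* had 1826, 579 and 621 in *lin-29; fbxl-5*, against 11.7, 11.7 and 8.18 in wild-type, a log2 fold change of 6.25 ± 0.58 (SE), adjusted p = 5.52e-07. *dpy-3* had 882, 543 and 496 in *lin-29; fbxl-5*, against 5.85, 21.1 and 4.54 in wild-type, a log2 fold change of 6.04 ± 0.57 (SE), adjusted p = 7.02e-07. *bli-1*, with 5.41, 14.3 and 12.9 in *lin-29; fbxl-5*, against 8.19, 9.37 and 9.09 in wild-type, was the one that did not pass (log2 fold change 0.17 ± 0.46 (SE), adjusted p = 0.773). Without *lin-29; fbxl-5* replicate 3, in which the adult collagen *col-19* was near its wild-type level, 9 were called as well. The first *lin-29; fbxl-5* library was the highest of its genotype for 8 of the 10 genes.

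**Figure D3:**
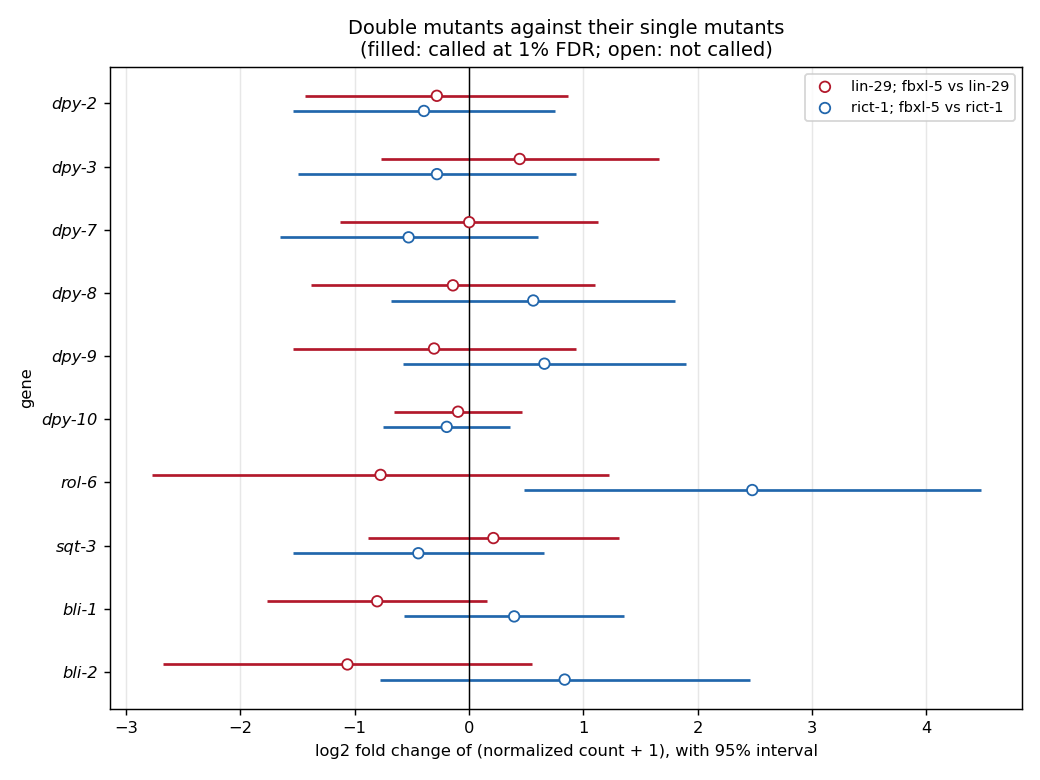
Log2 fold change of each collagen (rows) in the double mutants against the matching single mutants, with its 95% interval as a line; open points did not pass 1% FDR. All points are open, and only the interval of *rol-6* in *rict-1; fbxl-5*, 0.48 to 4.48, lies on one side of 0.

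In animals with the *fbxl-5* mutation alone, some furrow collagens and *sqt-3* lay above wild-type, but by a small amount beside the *lin-29* levels. *dpy-3* had normalized counts of 44.2, 55.9 and 38.9 in *fbxl-5*, against 5.85, 21.1 and 4.54 in wild-type, a log2 fold change of 2.31 ± 0.57 (SE), adjusted p = 0.0216. *sqt-3* had 699, 1019 and 614 in *fbxl-5*, against 222, 353 and 118 in wild-type, a log2 fold change of 1.85 ± 0.51 (SE), adjusted p = 0.0402. Neither passed 1% FDR. *dpy-2* had 53.8, 61.7 and 50.3 in *fbxl-5*, against 18.7, 32.8 and 6.36 in wild-type (adjusted p = 0.0611), and *dpy-7* had 35.3, 53.95 and 34.3, against 17.5, 24.6 and 7.27 in wild-type (adjusted p = 0.121). *dpy-8*, *dpy-9* and *rol-6* showed no such shift. *dpy-8* had 9.64, 3.85 and 9.14 in *fbxl-5*, against 11.7, 11.7 and 8.18 in wild-type, and *rol-6* had 1.61, 2.89 and 4.57, against 5.85, 7.03 and 1.82 in wild-type. *bli-2* had 7.23, 2.89 and 1.14 in *fbxl-5*, against 9.36, 3.51 and 2.73 in wild-type.

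None of the 10 was called in *fbxl-5* by limma at 1% FDR, against 2.56% of all genes in either direction, and edgeR called 0. At an unadjusted p under 0.05 there were 4 of the 10, *dpy-2*, *dpy-3*, *dpy-7* and *sqt-3*, all higher in *fbxl-5*, against 24.1% of all genes in either direction. For 6 of the 10 every *fbxl-5* library was above every wild-type library, against 18.4% of all genes. DESeq2 on the recovered reads called 1 gene, *sqt-3* (adjusted p = 0.00643). Fitting *fbxl-5* and wild-type libraries alone also called 1, *dpy-3* (adjusted p = 0.00231), as did leaving out wild-type replicate 2 (*dpy-3*, adjusted p = 0.00853). Wild-type replicate 2 was the highest of its genotype for 8 of the 10 genes. Without *fbxl-5* replicate 3, the library with the largest share of ribosomal RNA, 0 were called.

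In *rict-1* animals *dpy-3*, *dpy-7* and *sqt-3* were higher than in wild-type, and the remaining collagens differed less from wild-type. *dpy-3* had normalized counts of 23.6, 83.3 and 76.6 in *rict-1*, against 5.85, 21.1 and 4.54 in wild-type, a log2 fold change of 2.53 ± 0.57 (SE), adjusted p = 0.00382. *dpy-7* had 27.1, 118 and 81.8 in *rict-1*, against 17.5, 24.6 and 7.27 in wild-type, a log2 fold change of 2.05 ± 0.53 (SE), adjusted p = 0.00915. *sqt-3* had 525, 1576 and 1209.9 in *rict-1*, against 222, 353 and 118 in wild-type, a log2 fold change of 2.25 ± 0.51 (SE), adjusted p = 0.00491. These 3 of 10 compare with 10.7% of all genes higher in *rict-1*, and no collagen of the 10 was lower. *dpy-2* lay just outside the threshold, with 39.3, 90.3 and 85.3 in *rict-1*, against 18.7, 32.8 and 6.36 in wild-type (log2 fold change 2.01 ± 0.54 (SE), adjusted p = 0.0115). *dpy-10* had 162, 286 and 240.3 in *rict-1*, against 156, 141 and 124 in wild-type (log2 fold change 0.68 ± 0.26 (SE), adjusted p = 0.0632). *dpy-8* had 7.87, 38.1 and 23.3 in *rict-1*, against 11.7, 11.7 and 8.18 in wild-type, and *dpy-9* had 3.50, 21.8 and 17.2, against 15.2, 19.9 and 12.7 in wild-type, with overlapping libraries in both cases. *rol-6* had 0, 11.7 and 12.1 in *rict-1*, against 5.85, 7.03 and 1.82 in wild-type. For 6 of the 10 every *rict-1* library was above every wild-type library, against 24.4% of all genes. *bli-1* was among them with 16.6, 17.9 and 16.4 in *rict-1*, against 8.19, 9.37 and 9.09 in wild-type, a log2 fold change of 0.86 ± 0.46 (SE), adjusted p = 0.166.

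The 3 calls in *rict-1* were sensitive to single libraries. *rict-1* replicate 1 was the lowest of its genotype for 8 of the 10 genes and replicate 2 the highest for 9. Without wild-type replicate 1, wild-type replicate 3, *rict-1* replicate 2 or *rict-1* replicate 3, none of the 10 was called, with adjusted p between 0.0212 and 0.0226 for *dpy-3* and between 0.0162 and 0.0261 for *sqt-3*. *dpy-7* passed narrowly, and leaving out those 4 libraries, any *fbxl-5* library, *lin-29* replicate 2, or replicate 2 or 3 of either double mutant put its adjusted p between 0.0105 and 0.0512. *dpy-2* was called, at adjusted p between 0.00443 and 0.00974, when wild-type replicate 2, *lin-29* replicate 1 or 3, *rict-1* replicate 1 or *rict-1; fbxl-5* replicate 1 was left out. Fitting only *rict-1* and wild-type libraries left 1 of the 10 called, and so did testing genes without the filter on low values. edgeR called 3 and DESeq2 called 4, with *dpy-2* added (adjusted p = 0.0054).

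None of the 10 differed between *rict-1; fbxl-5* and *rict-1* animals at the threshold of the same test. *sqt-3* had normalized counts of 377, 1008 and 1048 in *rict-1; fbxl-5*, against 525, 1576 and 1209.9 in *rict-1*, and *dpy-7* had 24.8, 55.7 and 62.5 in *rict-1; fbxl-5*, against 27.1, 118 and 81.8 in *rict-1*. The libraries of both genotypes overlapped for all 10 genes, while 22% of all genes did not overlap in either direction. Same-numbered libraries of these genotypes deviated together, and within the 3 pairs *dpy-2*, *dpy-3*, *dpy-7*, *dpy-10* and *sqt-3* were lower in *rict-1; fbxl-5* every time, 5 of the 10 against 24.4% of all genes. *dpy-8*, *dpy-9* and *rol-6* were higher every time, 3 of the 10 against 19.1% of all genes. In a limma fit with the replicate number as a block shared by all genotypes, none of the 10 was called (adjusted p from 0.263 to 0.933). That block is not specific to these pairs, and a paired test of these genotypes alone was not run. Without the block limma called 0 at 1% FDR, against 1.39% of all genes in either direction, edgeR and DESeq2 called 0, and 1 of the 10 had an unadjusted p under 0.05, against 12.6% of all genes. That gene was *rol-6*, with 8.26, 37.1 and 80.2 in *rict-1; fbxl-5*, against 0, 11.7 and 12.1 in *rict-1* (log2 fold change 2.48 ± 0.94 (SE), adjusted p = 0.228). For *sqt-3* the log2 difference was -0.44 with a 95% interval of -1.54 to 0.65, and for *dpy-10* it was -0.19 (-0.75 to 0.36). Both strut collagens had 1 library far above the other 2 of the double mutant: replicate 3 held 55.7 for *bli-1* and 48.96 for *bli-2*, against 12.9 to 15.7 and 7.26 to 10.7 in replicates 1 and 2.

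Relative to wild-type, the *rict-1; fbxl-5* animals had higher values for several collagens without reaching the threshold. *dpy-3* had 19.8, 62.1 and 67.5 in *rict-1; fbxl-5*, against 5.85, 21.1 and 4.54 in wild-type, a log2 fold change of 2.25 ± 0.57 (SE), adjusted p = 0.0109. *sqt-3* had 377, 1008 and 1048, against 222, 353 and 118 in wild-type, a log2 fold change of 1.80 ± 0.51 (SE), adjusted p = 0.0217. limma called 0 of the 10 at 1% FDR, against 10.9% of all genes in either direction, and edgeR called 0. At an unadjusted p under 0.05 there were 7, all higher in *rict-1; fbxl-5*, against 36.6% of all genes in either direction. They were *dpy-2*, *dpy-3*, *dpy-7*, *dpy-8*, *rol-6*, *sqt-3* and *bli-1*. For 5 of the 10 every library of the double mutant was above every wild-type library, against 23.1% of all genes. DESeq2 called 2, *dpy-3* (adjusted p = 0.00339) and *sqt-3* (adjusted p = 0.00195). Leaving out *rict-1; fbxl-5* replicate 1, the lowest of its genotype for 8 of the 10 genes, called the same 2 in limma (adjusted p = 0.00441 and 0.00826). *dpy-3* was also called without wild-type replicate 2 (adjusted p = 0.00281) or without *rict-1* replicate 1 (adjusted p = 0.00584).

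Set directly against each other, *lin-29* animals had the higher level of 9 of the 10 collagens than *rict-1* animals, against 17% of all genes higher. *dpy-9* had 819, 454 and 217 in *lin-29*, against 3.50, 21.8 and 17.2 in *rict-1*, a log2 difference of 5.14 ± 0.58 (SE), adjusted p = 4.37e-06. *dpy-10* had the smallest of the 9 differences, 2.05 ± 0.26 (SE), adjusted p = 1.32e-05, and *bli-1* did not pass (0.11 ± 0.46 (SE), adjusted p = 0.864). Whether *fbxl-5* loss acted differently in the mutants than in wild-type was tested as an interaction. In *lin-29* it was called for 0 of the 10 by limma, edgeR and DESeq2, against 2.4% of all genes in limma, and 3 of the 10, *dpy-2*, *dpy-3* and *sqt-3*, had an unadjusted p under 0.05, against 21.5% of all genes. In *rict-1* it was called for 0 of the 10 by the same tools, against 0.854% of all genes, and 5 of the 10, *dpy-2*, *dpy-3*, *dpy-7*, *rol-6* and *sqt-3*, had an unadjusted p under 0.05, against 17.4% of all genes.

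Ordering the 6 genotypes by mean level gave a like order for *dpy-2*, *dpy-3*, *dpy-7* and *sqt-3*. *lin-29* and *lin-29; fbxl-5* were at the top with overlapping libraries, *rict-1*, *rict-1; fbxl-5* and *fbxl-5* followed in that order and overlapped one another, and wild-type came last. The *rict-1* and *fbxl-5* libraries of these 4 genes were all above those of wild-type. For *dpy-7* and *sqt-3* the *rict-1; fbxl-5* libraries were as well, whereas for *dpy-2* and *dpy-3* the lowest of them, at 26.4 and 19.8, lay under the highest of wild-type, at 32.8 and 21.1. For *sqt-3* the genotype means were 7592 ± 1141 in *lin-29; fbxl-5*, 6991 ± 3202 in *lin-29*, 1103 ± 534 in *rict-1*, 811 ± 377 in *rict-1; fbxl-5*, 777 ± 214 in *fbxl-5* and 231 ± 117 in wild-type (SD, n = 3 each). All libraries with the *lin-29* mutation were above all of the others for the 4 genes. For *dpy-8*, *dpy-9* and *rol-6* there was 1 gap only, between the 2 genotypes with the *lin-29* mutation and the other 4, whose neighbours overlapped. *dpy-10* had the same single gap between neighbours. Its *rict-1* libraries, from 162, and its *fbxl-5* libraries, from 178, were nonetheless all above those of wild-type, which reached 156. *bli-1* had none between neighbours in its order, which *rict-1; fbxl-5* headed with a mean of 28.1 ± 23.95 (SD, n = 3). *bli-2* had none either, since *lin-29; fbxl-5* replicate 3, at 28.8, was below *rict-1; fbxl-5* replicate 3, at 48.96.

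In some genotypes 1 replicate was high or low in most of the collagens, as in *lin-29*, *rict-1* and wild-type. *lin-29* replicate 1 was the highest of its genotype for 9 of the 10 genes and replicate 3 the lowest for 9, and wild-type replicate 3 was the lowest of wild-type for 9. In *fbxl-5* this was not so: replicate 2 was the highest for *dpy-2*, *dpy-3*, *dpy-7*, *dpy-10* and *sqt-3* and the lowest for *dpy-8* and *dpy-9*. As a description over libraries, the 15 pairs of furrow collagens had Pearson's r of 0.884 to 0.99 on the log2 scale over all 18 libraries, libraries with and without the *lin-29* mutation pooled. Over the 12 libraries without that mutation the median r of the pairs was 0.552, from 0.263 to 0.965. Over the 6 with it the median was 0.855, from 0.622 to 0.959. Libraries of 1 genotype share the strain, and these values carry no test. *bli-2* had r of 0.809 to 0.911 with the furrow collagens over all 18 libraries, whereas *bli-1* had r of -0.0769 to 0.12. Over the 12 libraries without the *lin-29* mutation these were 0.239 to 0.645 for *bli-2* and 0.145 to 0.551 for *bli-1*. Over the 6 with it they were 0.529 to 0.861 for *bli-2* and -0.829 to -0.227 for *bli-1*. The 2 strut collagens had r of 0.793 with each other over the 12 libraries without the *lin-29* mutation and -0.107 over the 6 with it.

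**Figure D4:**
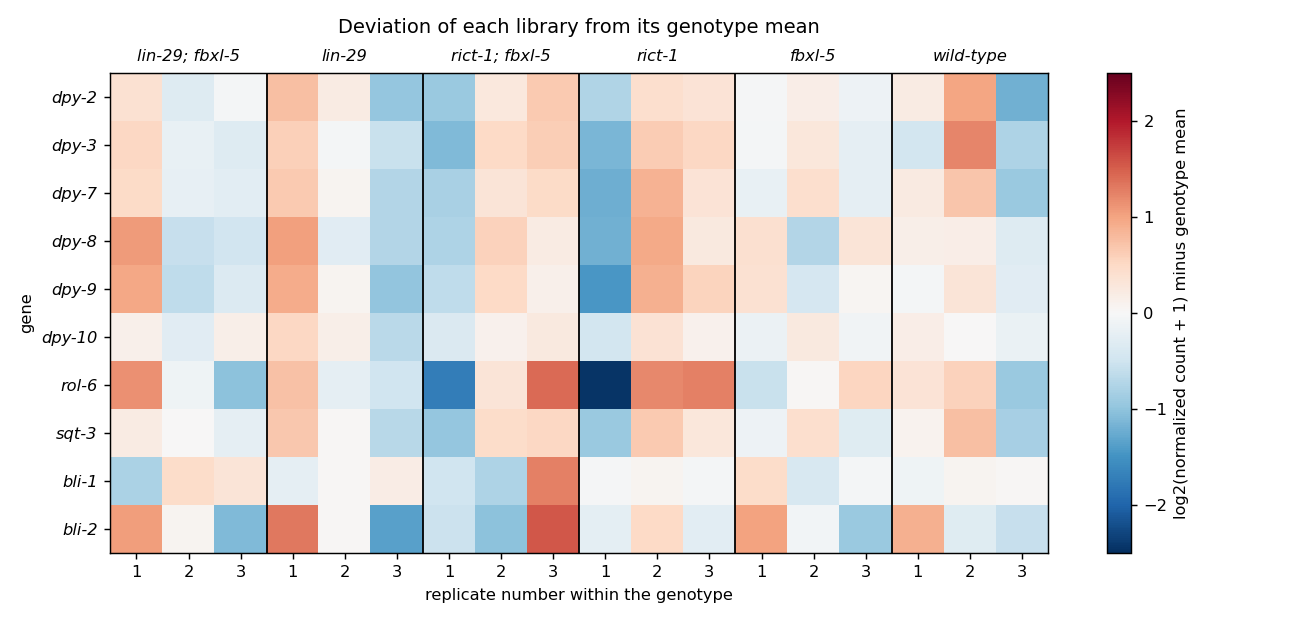
Log2(normalized count + 1) of each collagen (rows) in each library (columns, 3 replicates a genotype) minus the mean of its genotype, in colour. From *dpy-2* to *sqt-3*, *lin-29* replicate 1 is above and *rict-1* replicate 1 below the mean throughout, the *fbxl-5* columns are mixed, and replicate 3 of *rict-1; fbxl-5* is highest in both strut collagens.

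The genes most like the mean of the furrow collagens over the 18 libraries, outside the 10, were *abu-12* (r = 0.991), *hhat-1*, a hedgehog acyltransferase homolog (r = 0.989), WBGene00018737, which has no symbol in the table used (r = 0.989), *H42K12.3* (r = 0.988) and *acn-1*, an ACE-like protein needed for molting (r = 0.988). *acn-1* averaged 2337 ± 1458 in *lin-29* and 53.8 ± 23.1 in wild-type (SD, n = 3 each). Over the 12 libraries without the *lin-29* mutation, r with the furrow collagens was 0.908 to 0.955 for these 5, and over the 6 with it 0.778 to 0.966. Both sets are part of the 18 libraries by which the 5 were picked. Those most like the mean of *bli-1* and *bli-2*, which had r of only 0.23 with each other, were *E01G4.6* (r = 0.93), *F52H3.6* (r = 0.902) and the collagen genes *col-139*, *col-129* and *col-81* (r = 0.895 to 0.9). Over the 6 libraries with the *lin-29* mutation r was 0.927 for *E01G4.6* and 0.439 to 0.57 for the others. Over the 12 without it r was 0.81 to 0.849. *col-129* averaged 3566 ± 1159.6 in *lin-29* and 191 ± 51.9 in wild-type (SD, n = 3 each). Likeness of this kind was read from the same 18 libraries as the levels.

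Other cuticle genes showed how far the pattern of the 10 extended. Of 11 other body-shape collagens, 10 were higher in *lin-29* and 0 lower, against 22.6% and 18.4% of all genes. Their median log2 fold change was 7.56. The 2 most abundant were *dpy-4*, with 20409, 12952 and 10415 in *lin-29*, against 43.3, 25.8 and 15.4 in wild-type, and *dpy-13*, with 18699, 12155 and 10126, against 44.4, 29.3 and 15.4 in wild-type. The 11th was *bli-6*, another collagen whose mutants blister, named here after its values were seen, with 17.5, 14.3 and 6.02 in *lin-29*, against 18.7, 30.4 and 23.6 in wild-type (log2 fold change -0.98, adjusted p = 0.145). *bli-6* was lower in *lin-29; fbxl-5*, with 8.11, 4.10 and 2.88 against 18.7, 30.4 and 23.6 in wild-type (log2 fold change -2.14, adjusted p = 0.00409), while the other 10 were higher there. In *rict-1* only *dpy-14* of the 11 passed, with 583, 1345 and 1203 in *rict-1*, against 177, 344 and 81.8 in wild-type (log2 fold change 2.51, adjusted p = 0.0052). *dpy-4* and *dpy-13* were not above wild-type there, at 5.25, 21.8 and 44.8 and at 4.37, 21.01 and 44.8 in *rict-1* animals. *dpy-17*, not called, averaged 1133 ± 503 in *rict-1* and 806 ± 168 in *fbxl-5*, against 345 ± 94.2 in wild-type (SD, n = 3 each). *dpy-14* averaged 626 ± 170 in *fbxl-5*, also not called, against 201 ± 133 in wild-type. The median log2 fold change of the 11 was 0.07 in *rict-1* and -0.155 in *fbxl-5*.

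Among 14 molting and apical matrix genes, 10 were higher in *lin-29* and 0 lower, against 22.6% and 18.4% of all genes. Their median log2 fold change was 3.08. *mlt-11*, a predicted protease inhibitor needed for molting, had 6915, 3339 and 2070.3 in *lin-29*, against 117, 189.7 and 43.6 in wild-type (log2 fold change 5.18, adjusted p = 2.71e-06). *nhr-23*, the nuclear receptor of the molting cycle, had 1447, 1254 and 1184 in *lin-29*, against 1531, 1425 and 1345 in wild-type (log2 fold change -0.15, adjusted p = 0.334). In *rict-1* 4 of the 14 were higher, against 10.7% of all genes. They were *mlt-11*, the zona pellucida domain genes *noah-1* and *noah-2*, and the fibrillin-related *fbn-1*, higher by 1.69 to 2.28 on the log2 scale. *mlt-11* had 329.6, 613 and 561 in *rict-1*, against 117, 189.7 and 43.6 in wild-type. Of 13 collagen processing and crosslinking genes, 6 were higher and 1 lower in *lin-29*, against the same 22.6% and 18.4% of all genes, with a median of 0.51. *pdi-2*, the disulfide isomerase subunit of prolyl 4-hydroxylase, had a log2 fold change of 0.51 (adjusted p = 0.00205), and *bli-4*, a protease that trims procollagens, one of -0.01 (adjusted p = 0.947). The lower one was *adt-2* (-0.87, adjusted p = 4.84e-04). In *fbxl-5* no gene of these 3 lists was called in either direction, against 2.56% of all genes.

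**Figure D5:**
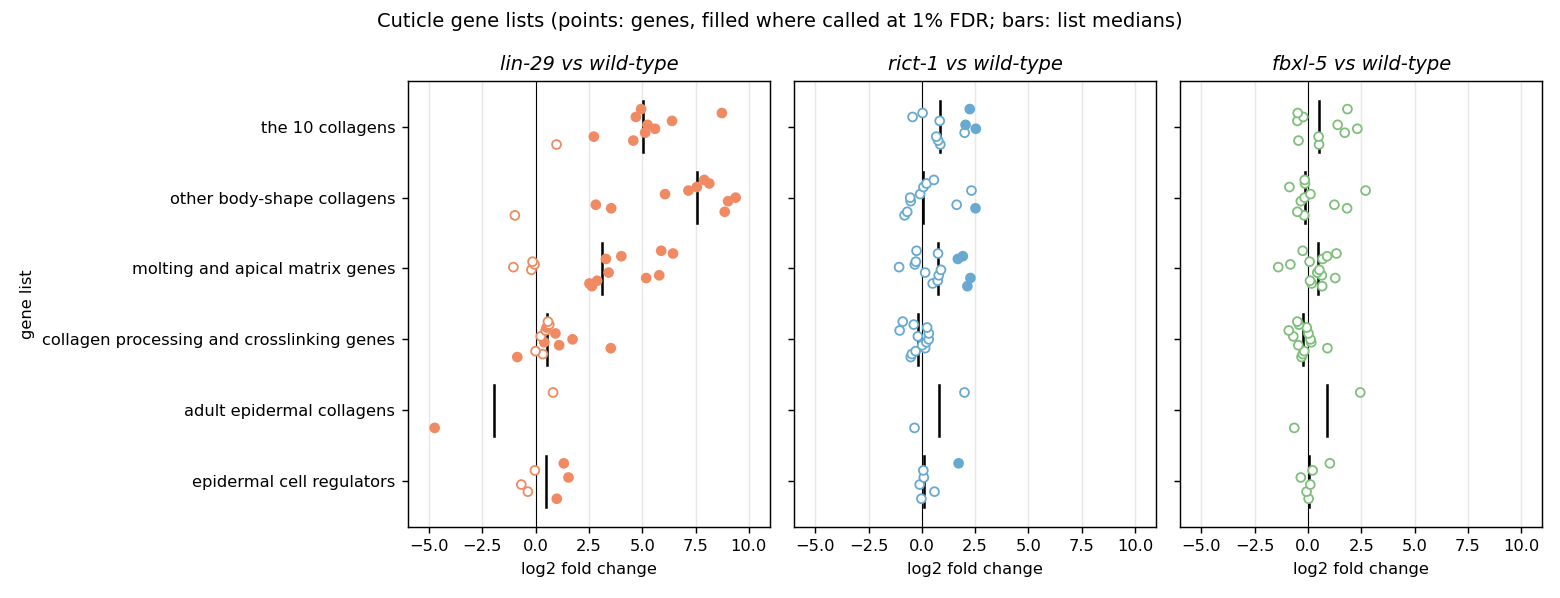
Log2 fold change against wild-type of the genes (points) of 6 cuticle lists in *lin-29*, *rict-1* and *fbxl-5* animals, filled where called at 1% FDR, with the list median as a bar. In *lin-29* the medians are 5.04 for the 10 collagens, 7.56 for the other body-shape collagens and 3.08 for molting genes; in *fbxl-5* no point is filled.

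Of 4 adult epidermal collagens, only *col-19* was lower in *lin-29*. *col-19*, the collagen taken as the mark of the adult epidermis, had 377, 896 and 567 in *lin-29*, against 12596, 16244 and 18154 in wild-type (log2 fold change -4.75, adjusted p = 3.40e-04). In *lin-29; fbxl-5* it had 386, 1749 and 11397, so replicate 3 was near the wild-type level, whereas the same library held 495 for *dpy-7* and 6443 for *sqt-3*. *col-63* had 3.69, 8.04 and 3.01 in *lin-29*, against 2.34, 2.34 and 1.82 in wild-type, and was not called (adjusted p = 0.369). *col-7* and *col-62* had means under the minimum of 10 for testing, with 31.3, 41.1 and 9.03 and with 30.4, 43.8 and 9.03 in *lin-29*, against 0, 3.51 and 0.909 and 2.34, 4.68 and 0.909 in wild-type. Of 6 regulators of epidermal cells, 3 were higher in *lin-29* and 0 lower, against 22.6% and 18.4% of all genes. Their means in *lin-29* and wild-type were 189 and 71.7 for *nhr-25*, 453 and 224 for *blmp-1*, and 226 and 76.1 for *grh-1*. *elt-3* had means of 165 and 262 and was not called. *lin-26* had a log2 fold change of -0.04 (adjusted p = 0.761) and *elt-1*, a GATA factor of the epidermis, one of -0.37 (adjusted p = 0.0863).

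Some markers of other tissues were also called in these comparisons. Over all genes tested, 22.6% were higher and 18.4% lower in *lin-29*, 10.7% were higher in *rict-1*, and 2.56% were called in *fbxl-5*. The lists hold 5 to 8 genes that could be tested, so counts such as 2 of 5 or 3 of 8, and single calls, do not by themselves show a change of a tissue. In *lin-29*, 4 of 5 body wall muscle markers were higher, with a summed normalized count of 49004 to 91433 in *lin-29*, against 27892 to 42912 in wild-type, 2 of 5 intestine markers were higher, and 3 of 8 sperm genes were higher. There, 4 of 8 early embryo genes and 4 of 8 oocyte and eggshell genes were lower, among the embryo genes *vet-2*, with 401, 342 and 167 in *lin-29*, against 785, 962 and 960.4 in wild-type. In *rict-1*, all 5 intestine markers were higher, with a summed normalized count of 173291 to 206181 in *rict-1*, against 47376 to 58859 in wild-type, which the protease gene *asp-1* dominated, and 1 of 5 muscle markers was higher, while none of the embryo, oocyte and sperm genes was called. In *fbxl-5* the one gene called of these 5 lists was the oocyte gene *oma-2*, with 10429, 9879 and 9711 in *fbxl-5*, against 15396, 14329 and 13609 in wild-type. In *lin-29; fbxl-5* against wild-type, 7 of 8 early embryo genes and 3 of 8 oocyte and eggshell genes were lower, 5 of 8 sperm genes and 2 of 5 muscle markers were higher, and of 5 intestine markers 1 was higher and 2 lower. Against *lin-29*, 3 of 5 intestine markers were lower there and 1 of 8 oocyte and eggshell genes was higher. In *rict-1; fbxl-5* against wild-type, 4 of 5 intestine markers, 3 of 8 sperm genes and 1 of 5 muscle markers were higher and 1 of 8 oocyte and eggshell genes was lower, and against *rict-1* 1 intestine marker was lower. Over all genes, 19.5% were higher and 19.5% lower in *lin-29; fbxl-5* against wild-type, and 5.82% were called against *lin-29*. For *rict-1; fbxl-5*, 10.9% were called against wild-type and 1.39% against *rict-1*. The 2 most abundant muscle markers, the myosin gene *unc-54* and the paramyosin gene *unc-15*, had log2 fold changes of 1.20 and 0.89 in *lin-29* against wild-type, the embryo genes *vet-2* and *vet-6* -1.66 and -1.68, the sperm genes *ssq-1* and *gsp-3* 1.30 and 1.91, the eggshell genes *cbd-1* and *perm-4* -0.54 and -0.01, and the intestine genes *asp-1* and *vha-6* -0.11 and 0.40. In *rict-1* the values of *asp-1* and *vha-6* were 1.93 and 0.86. Replicate 3 stood far above its genotype in 2 of these sums. The summed normalized count of the sperm genes was 209, 193 and 677 in *lin-29*, against 126, 74.95 and 91.8 in wild-type. For the intestine markers the sum was 34828, 25297 and 73149 in *lin-29; fbxl-5*, against 47376, 58859 and 50077 in wild-type. The summed level of the 6 furrow collagens was 2969 to 5807 in *lin-29; fbxl-5*, 2347 to 6711 in *lin-29*, 251 to 496 in *rict-1; fbxl-5*, 263 to 637 in *rict-1* and 330.3 to 417 in *fbxl-5*, against 163 to 251 in wild-type. The part of these tissue differences in the collagen levels was not tested.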

How the data were processed

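Polyadenylated RNA libraries (unstranded TruSeq kit, single-end reads) were aligned by the authors to the WS260 genome and counted per gene. STAR, featureCounts, Subread and DESeq2 are named in the submitters' processing notes, and their versions are not given in the sources used here. The deposited signal is the count of each gene divided by the DESeq2 size factor of its library, for 18 libraries described as 3 independent biological replicates of 6 genotypes. Dividing each library by its smallest value above 0 gave whole reads for 100% of values (tolerance 0.001). 7 further deposited tables hold the authors' fold changes and p-values and were not used.

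Genes with a mean of at least 10 (13472 of 24998, all 10 collagens among them) were tested on log2(value + 1) with limma 3.58.1 (R 4.3.3; trend, robust, 1 mean per genotype, all libraries), with Benjamini-Hochberg adjustment and calls at 1% FDR. A fold change on this scale understates the change of genes with few reads. The scripts were tested on simulated data. Alternatives were pseudocounts of 0.5 and 4, no filter, TMM, only the genotypes compared, edgeR 4.0.16 (quasi-likelihood) and DESeq2 1.42.0 (Wald) on the recovered reads, 5% FDR, a replicate block, and each library left out. The genes described and the companion lists were chosen with earlier results of these data known. Named are the 2 genes of highest mean of each list and the 5 genes most like the furrow and the strut collagens. *dpy-14*, *dpy-17*, *bli-6*, *adt-2*, *noah-1*, *noah-2*, *fbn-1*, *nhr-25*, *blmp-1*, *grh-1*, *elt-3*, *oma-2*, *col-7* and *col-62* were named after their values were seen. Replicate numbers paired only *rict-1; fbxl-5* with *rict-1*, where same-numbered libraries deviated together (r of 0.646, 0.394 and 0.237 over genes), a pairing read from the data. Gene positions are from Ensembl release 115 (WBcel235). With 3 libraries a group the spread is loosely estimated.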

Additional observations from a re-analysis of the deposited data

How the results depend on the processing

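The 9 collagens called in *lin-29* against wild-type, in *lin-29; fbxl-5* against wild-type and in *lin-29* against *rict-1* stayed at 9 under every alternative and with each library left out. The counts of 0 in *lin-29; fbxl-5* against *lin-29*, in *rict-1; fbxl-5* against *rict-1* and in both interactions stayed at 0. Of the 80 pairs of a collagen and a comparison, 30 were called, and no called pair changed direction under any setting. With only the genotypes compared in the limma fit, 1 of the 10, *dpy-3*, was called in *fbxl-5* against wild-type (0 as reported). The same gene was the 1 called in *rict-1* against wild-type (3 as reported). In *rict-1; fbxl-5* against wild-type 1 was called (0 as reported), and it was *dpy-8* (adjusted p = 0.00821), which DESeq2 did not call. DESeq2 on the recovered reads called 1 in *fbxl-5*, 4 in *rict-1* and 2 in *rict-1; fbxl-5* against wild-type, and a threshold of 5% FDR called 2, 4 and 4. Without the filter on low values 1 was called in *rict-1*, and *dpy-7* in *rict-1* also missed the threshold with a pseudocount of 4 (adjusted p = 0.0104). Leaving out single libraries gave 0 to 1 calls in *fbxl-5*, 0 to 4 in *rict-1* and 0 to 2 in *rict-1; fbxl-5*, each against wild-type. Counts over all genes moved by over 1.5 times in more comparisons. With only the genotypes compared they were 1888 in *fbxl-5* (345 as reported), 2694 in *rict-1; fbxl-5* (1471) and 3347 in *lin-29; fbxl-5* (5250) against wild-type, 63 in *lin-29; fbxl-5* against *lin-29* (784), 427 in *rict-1; fbxl-5* against *rict-1* (187), 2347 in *lin-29* against *rict-1* (4231), and 135 (323) and 819 (115) in the interactions with *lin-29* and *rict-1*. DESeq2 called 828 genes in *fbxl-5*, 2218 in *rict-1; fbxl-5*, 1185 and 483 in the double against single mutants with *lin-29* and *rict-1*, and 701 and 457 in those interactions. At 5% FDR the counts were 1124 in *fbxl-5*, 3980 in *rict-1* (2215 as reported), 3114 in *rict-1; fbxl-5*, 1519 and 432 in the double against single mutants, and 907 and 495 in the interactions.

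Differences that were not called and lay near 0 changed sign with single libraries left out. The log2 difference between *lin-29; fbxl-5* and *lin-29* ran from -0.43 to 0.16 for *dpy-10* and from -0.14 to 0.55 for *sqt-3*, that between *rict-1; fbxl-5* and *rict-1* from -0.91 to 0.040 for *sqt-3*, and that between *lin-29; fbxl-5* and wild-type from -0.063 to 0.57 for *bli-1*. In all, 17 of the 80 pairs did so, and 2 under other settings, and values are given here for those whose fold change the report prints. Of the 30 called pairs, 3 lost the call with a library left out and 2 under other settings, all in *rict-1*, and 4 and 8 uncalled pairs gained one. The cause was not tested. With the replicate number as a block shared by all genotypes, 9 of the 10 were called in *lin-29*, 3 in *rict-1* and 0 in *fbxl-5* against wild-type. It called 0 in *rict-1; fbxl-5* against *rict-1*, the paired genotypes. The block so changed no count, but it is not a paired test of those genotypes. With 3 libraries a genotype, the 95% intervals of the uncalled differences span up to several-fold. Levels of *rol-6* and *bli-2* outside the *lin-29* genotypes rest on few reads, and those of *bli-1* do so in all 6 genotypes. The furrow collagens other than *dpy-10* also rest on few reads in wild-type, with normalized counts from 4.54 (*dpy-3*) to 32.8 (*dpy-2*).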
